A study of Mus musculus with 2 samples.

Results

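Tenocyte-like cells, taken here as stromal cells rich in both Tnmd and Kera, numbered 1257 among 20036 cells kept from the injured tendon area of mice. They were 727 cells of the TrkA WT library and 530 cells of the TrkA F592A library. A cell was a barcode with at least 1000 unique molecular identifiers (UMIs, each standing for 1 captured RNA molecule), at least 500 genes and at most 15% mitochondrial UMIs, and it was absent from the other library. Stromal cells had at least 2% of their UMIs on Col1a1, Col1a2 and Col3a1 together and at most 1 UMI on Ptprc and Pecam1. Tenocyte-like cells were the stromal cells with at least 5 Kera UMIs, at least 15 Tnmd UMIs per 10000, at most 2 Angptl7 UMIs and at most 1 Rbp4 UMI. The members were thus chosen by their measured levels of these genes, and the differences between the chosen cells and other stromal cells are given as a description.

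Both groups were 12 weeks old and were sampled 14 days after tendon surgery, with 3 mice pooled into 1 library per genotype. The WT library carries the title Control and the F592A library the title INMPP1. TrkA is a receptor tyrosine kinase, and the F592A allele makes its kinase sensitive to bulky inhibitors of the kind the title names. The labels leave out how the inhibitor was given and whether WT mice had it, so allele and inhibitor cannot be told apart. The cells were released by collagenase and dispase, and no marker was used to sort them. Each genotype had 1 library, so differences between genotypes could not be set against a spread between replicates and carry no p-value. Intervals are at 95% and cover only the error of counting, and higher or lower means the F592A library against the WT library unless another pair is named.

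Tenocytes are the resident fibroblasts of tendon and build its aligned collagen I fibrils. Tnmd encodes tenomodulin, a membrane glycoprotein of mature tendon cells that lies downstream of the transcription factor scleraxis (Scx), and Mkx encodes a homeobox factor of tendon. Kera and Fmod encode keratocan and fibromodulin, small leucine-rich proteoglycans that bind collagen fibrils, and Chad encodes the collagen-binding protein chondroadherin. Cilp2 encodes a secreted cartilage intermediate layer protein, and Mstn encodes myostatin, a secreted TGF-beta family factor best known as a brake on muscle growth.

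Promoter sequences are shown for 3 markers. Chad and Fmod are shown because their levels varied together among these cells, and Mstn because it was the marker with the largest difference between the libraries. Each run is the 250 bases before the gene start in RefSeq on GRCm38.p6, written 5′ to 3′ on the gene's strand, at chr11:94564797-94565046 for Chad, chr1:134037004-134037253 for Fmod and chr1:53061390-53061639 for Mstn, all on the plus strand. Capitals mark matches to CANNTG, the E-box that proteins of the scleraxis class can bind. This motif reads the same on both strands.
Chad: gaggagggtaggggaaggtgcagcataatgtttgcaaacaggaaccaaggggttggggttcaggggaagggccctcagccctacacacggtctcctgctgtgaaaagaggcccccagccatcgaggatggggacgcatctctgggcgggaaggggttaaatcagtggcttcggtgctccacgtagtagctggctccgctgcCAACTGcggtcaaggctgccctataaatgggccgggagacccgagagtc
Fmod: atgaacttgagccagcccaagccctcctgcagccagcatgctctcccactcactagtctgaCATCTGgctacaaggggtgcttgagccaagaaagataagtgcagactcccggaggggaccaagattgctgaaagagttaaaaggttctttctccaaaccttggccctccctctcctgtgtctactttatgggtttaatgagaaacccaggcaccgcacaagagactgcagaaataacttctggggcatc
Mstn: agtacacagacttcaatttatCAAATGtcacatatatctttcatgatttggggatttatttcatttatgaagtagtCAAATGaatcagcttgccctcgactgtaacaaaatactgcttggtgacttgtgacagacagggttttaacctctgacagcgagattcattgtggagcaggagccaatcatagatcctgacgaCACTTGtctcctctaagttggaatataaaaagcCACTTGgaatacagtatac
The Mstn window held 4 matches, and the Chad and Fmod windows held 1 each. Of the markers not printed, whose windows overlap annotated gene bodies, Cilp2 had 1 match and Tnmd and Kera had 0. Of 32851 promoter windows of this length, 66.2% held at least 1 match and 3.84% held at least 4. A match is a stretch of letters and not a measured binding site.

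Of the tendon genes that the rule did not use, Scx was detected in 95.05% of the WT and 97.4% of the F592A tenocyte-like cells. The shares were 89.4% and 87.4% in surface-type cells (stromal cells rich in Kera and Angptl7), 57.1% and 52.9% in other stromal cells and 4.13% and 4.12% in leukocytes, so Scx was not particular to the tenocyte-like cells. Its level was 539.5 and 509.7 CPM (UMIs of the gene per 1000000 UMIs summed over the cells), against 198.5 and 178.8 CPM in other stromal cells, meaning all stromal cells outside the rule. Mkx was at 68.6 and 70.6 CPM, against 16.2 and 22.3 CPM in other stromal cells. Both tendon factors were thus more than 2-fold above the pooled other stromal cells in each library. Mkx was detected in 71.8% of the WT and 77.4% of the F592A tenocyte-like cells. In surface-type cells the Mkx shares were 62.1% and 67.8%, so Mkx was not particular to the tenocyte-like cells either. Tnmd, on chromosome X at 133850980 to 133865577 in GRCm38, stood at 3446 and 3462 CPM in the WT and F592A tenocyte-like cells. Kera, on chromosome 10 at 97606879 to 97613692, was at 724 and 751 CPM. Both were held to the same limits in the libraries.

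Among the other 4 markers, Fmod was in every cell and Mstn was patchy. Fmod had a UMI in all tenocyte-like cells and stood at 3002 and 2808 CPM. Its median per cell was 27.4 UMIs per 10000 in WT and 25.4 in F592A, against 4.93 and 5.07 in other stromal cells. In surface-type cells the median was 25.2 and 28.4, so Fmod was not particular to the tenocyte-like cells. Cilp2 stood at 641 and 448 CPM, with UMIs in 86.9% and 86.6% of the cells. Chad stood at 415 and 306 CPM, with UMIs in 61.6% and 51.3% of the cells. Surface-type cells had Cilp2 UMIs in 82.6% and 87.4% and Chad UMIs in 55.7% and 62.1% of cells. Mstn, on chromosome 1 at 53061640 to 53068079, stood at 148 and 60.2 CPM. Its UMIs came from 31.2% of WT and 17.7% of F592A cells, so the median cell of both libraries had none. These levels are sums over the cells, and a few Mstn-rich cells weigh heavily in them. In the F592A library the 5 cells richest in Mstn carried 38.3% of its UMIs, and in the WT library 13.8%.

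**Figure D1:**
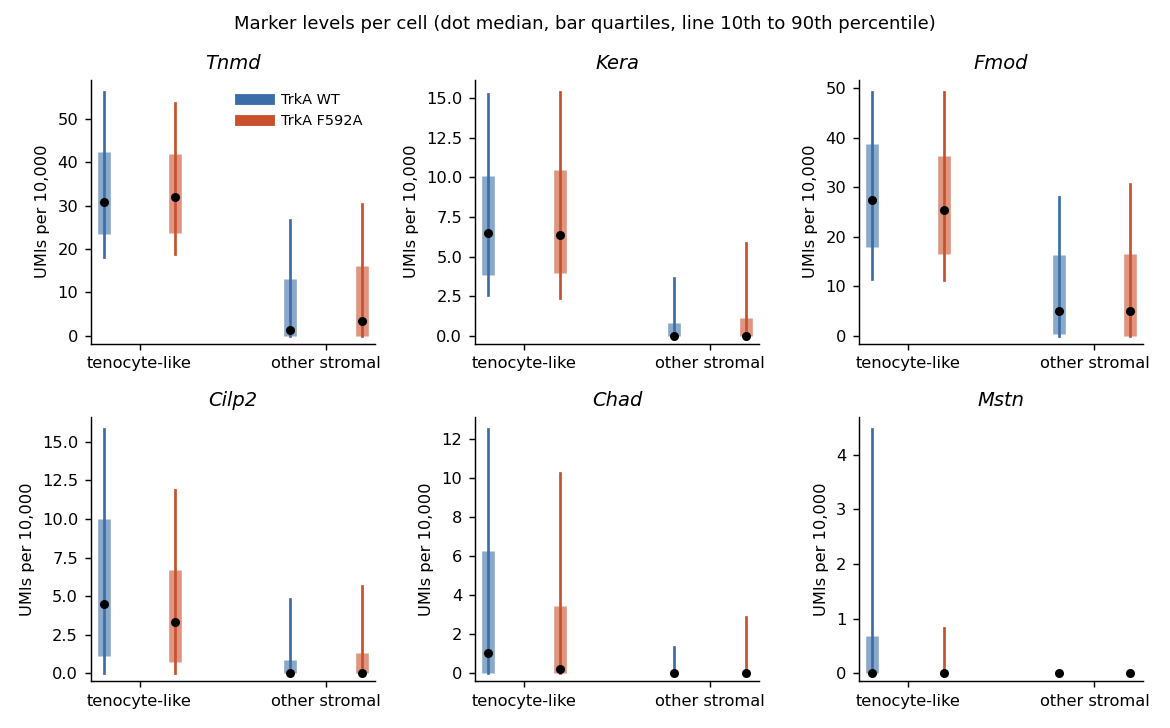
Levels of the 6 markers per cell, in UMIs per 10000, in tenocyte-like and other stromal cells of the 2 libraries. Dots are medians over cells, thick bars quartiles and thin lines the 10th to 90th percentile; Fmod was high in nearly every tenocyte-like cell, while the median of Mstn was 0 in all 4 groups of cells.

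Cells on either side of a limit were close in the genes that set the other limits, and these values are given without a test. Cells just inside the Tnmd limit, with 15 to 20 Tnmd UMIs per 10000, numbered 104 in WT and 82 in F592A and had 600.0 and 632 Kera CPM. The 96 and 66 cells just outside it, with 10 to 15, had 576 and 622 Kera CPM. At the Kera limit, the 98 WT and 42 F592A cells with 5 or 6 Kera UMIs had 3090 and 3348 Tnmd CPM, and the 100 and 73 cells with 3 or 4 had 3039 and 3514. Chad and Mstn were less even there: in F592A, Chad was at 187 CPM inside and 511 CPM outside the Kera limit, and Mstn at 19.3 and 164 CPM. In WT, Chad was at 392 and 348 CPM and Mstn at 180.3 and 106 CPM. Just above the Angptl7 limit, with 3 to 5 UMIs, 37 WT and 56 F592A cells had 3015 and 3212 Tnmd CPM, and just above the Rbp4 limit, with 2 or 3 UMIs, 47 and 30 cells had 2957 and 2899. In 3 of these small sets Mstn was higher in F592A than in WT: at 164 against 106 CPM just outside the Kera limit, 42.3 against 23.9 CPM just inside the Tnmd limit and 57.6 against 42.4 CPM just above the Rbp4 limit.

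Tenocyte-like cells made up nearly the same part of both libraries. They took 6.33% of the cells in the WT library (interval 5.89 to 6.79). In the F592A library they took 6.198% (interval 5.70 to 6.73), which is 0.979 times the WT share (interval 0.879 to 1.09). Among stromal cells alone the shares were 11.3% and 11.5%, and their ratio was 1.02 (interval 0.918 to 1.13). This balance depended on the Angptl7 limit. Before the Angptl7 and Rbp4 limits there were 1067 WT and 957 F592A cells with both Tnmd and Kera, a ratio of 1.25 among stromal cells. Of these, 174 WT and 325 F592A cells exceeded the Angptl7 limit, 200 and 158 exceeded the Rbp4 limit, and 34 and 56 of them exceeded both. Angptl7 encodes a secreted angiopoietin-like protein, and stromal cells with at least 5 Kera and 3 Angptl7 UMIs, called surface-type here whatever their Tnmd level, took 4.09% of WT and 9.42% of F592A stromal cells. With at most 5% mitochondrial UMIs the ratio among stromal cells was 1.24, with 247 WT and 288 F592A cells left. The median mitochondrial share of tenocyte-like cells was 5.51% in WT and 4.84% in F592A, and its part in the ratio was not tested.

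The libraries held 14868 and 10677 barcodes with 222874195 and 181472230 UMIs, every barcode with at least 500 UMIs. Of these barcodes 764 occurred in both libraries and were left out, which removed 4 WT and 2 F592A cells that met the rest of the rule. Tenocyte-like cells carried 18623442 and 15829256 UMIs, with a median of 24259 and 28469.5 UMIs and 4434 and 4732.5 genes per cell. Scrublet called 1.38% and 1.13% of them doublets. Endothelial and bone markers were near 0: the 4 endothelial markers summed to 2.95 and 2.59 CPM, against 2789 and 2625 CPM in endothelial cells, and the 5 bone markers to 0.859 and 0.948 CPM, with 4 of 5 at 0 in WT. The 6 macrophage markers summed to 239 and 101 CPM and were all lower in F592A, as they were 227 and 101 CPM in other stromal cells and 23643 and 17208 CPM in leukocytes. The 6 cartilage markers summed to 918 and 871 CPM, of which Acan made up 675 and 648 CPM, against 535 and 494 CPM in other stromal cells. The 5 tendon surface markers summed to 719 and 676 CPM, against 1074 and 1111 CPM in other stromal cells, and the 4 adventitial markers to 417 and 354 CPM, against 1161 and 1102 CPM.

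Of 13903 genes, 53 (0.381%) exceeded other stromal cells by 2-fold or more in both libraries and 138 (0.993%) were below them by as much, with at least 20 CPM on the higher side. Ranked by the library in which the ratio was smaller, the first was Chst5, a sulfotransferase of keratan sulfate, the sugar chain that keratocan and fibromodulin carry. It was at 83.7 and 64.8 CPM, against 13.9 and 11.3 CPM in other stromal cells, log2 ratios of 2.59 and 2.51. Mstn was 2.95 and 1.52 on the same log2 scale, so it was above other stromal cells in both libraries but less so in F592A. Col11a2 (2.46 and 1.90) and Col22a1 (1.85 and 1.49) encode collagens of cartilage-like matrix and of tissue junctions such as the myotendinous junction. Sema3a (1.81 and 1.48) encodes a semaphorin that repels growing axons and stood at 24.5 and 22.4 CPM. Adam23, Tdh, Ooep, Cybrd1, Ptx4, Gpha2, Mkx, Mettl24, Evc2 and Gas2 were also among the 15 highest, with log2 ratios from 1.51 (Gas2 in WT) to 2.94 (Tdh in WT). Gpha2, a glycoprotein hormone subunit, was at 157 and 127 CPM, but in F592A the 5 richest cells held 40.4% of its UMIs.

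The 10 genes lowest against other stromal cells were Saa3, Plac8, Cxcl5, Myoc, Scara5, Ebf2, Sfrp1, Eln, Tnxb and Pi16. Saa3, an acute-phase serum amyloid, was at 1.66 and 0.442 CPM, against 54.4 and 46.0 CPM in other stromal cells. The neutrophil attractant Cxcl5 was at 4.78 and 3.73 CPM, against 171 and 78.0 CPM. Eln, which encodes elastin, was at 18.6 and 16.7 CPM, against 252 and 392 CPM. Tnxb, the matrix protein tenascin X, had log2 ratios of -3.88 and -3.72, and Sfrp1, a secreted Wnt antagonist, -4.03 and -4.76. Pi16, a marker of adventitial fibroblasts, had log2 ratios of -4.31 and -3.70, and Scara5, Ebf2, Myoc and Plac8 lay between -5.18 and -4.04.

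**Figure D2:**
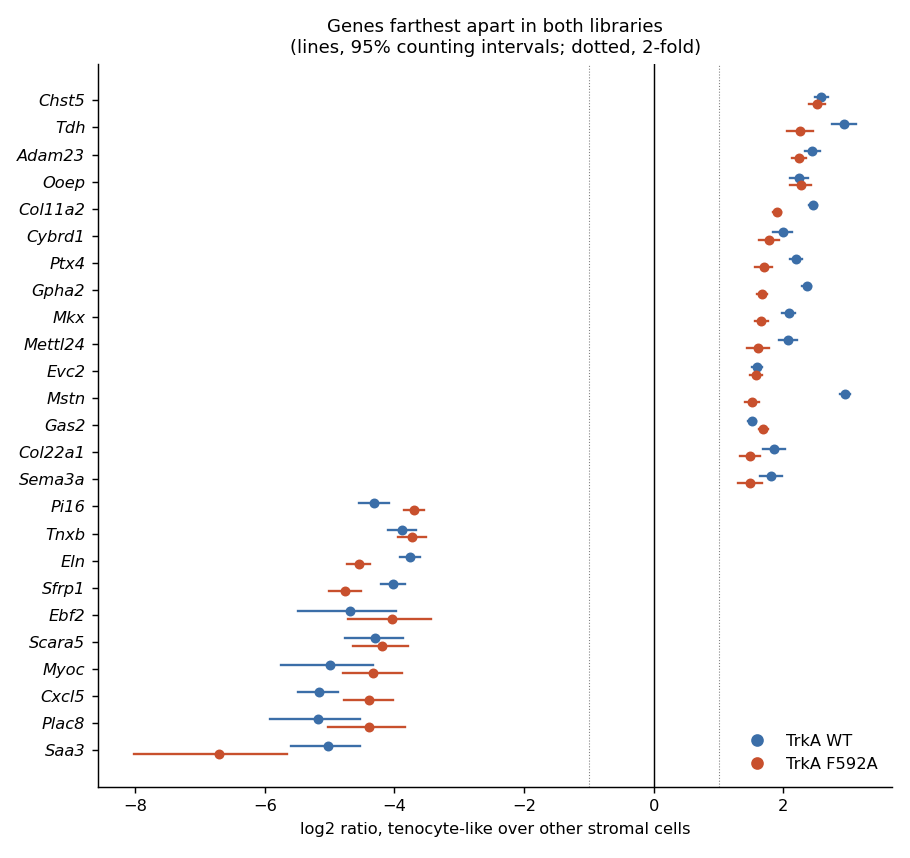
Log2 ratio of tenocyte-like over other stromal cells for the 15 highest and 10 lowest genes, in the WT and the F592A library. Points are ratios of summed CPM and lines 95% counting intervals; Chst5 was at 2.59 and 2.51, and Mstn at 2.95 in WT but 1.52 in F592A.

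Gene lists were counted against other stromal cells in the same way. Of the 28 tendon matrix genes, 5 were at least 2-fold higher in both libraries, and these were Tnmd, Kera, Fmod, Chad and Cilp2, the markers of the cells, of which Tnmd and Kera selected them. The 3 lower were Dpt, Tnxb and Clec3b. Of 13 tendon transcription factors 3 (Scx, Mkx and Eya2) were higher and 0 lower. Of 43 cytokine, chemokine and inflammation genes 15 were lower and 1 higher, of 20 tendon surface and sheath genes 9 were lower and 1 higher, and of 17 elastic fibre genes 5 were lower and 0 higher. Of the 31 genes of collagen processing, which hydroxylate, cleave and cross-link collagen, 0 passed in either direction. These are counts over lists, read beside the 0.381% and 0.993% of all genes given above, and the surface list holds Angptl7, whose limit helped select the cells.

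Against surface-type cells, which share Kera, few genes were higher. Of 11051 genes only 5 (0.0452%) were at least 2-fold higher in both libraries, and 39 (0.353%) were lower. The 5 were Col22a1, Tagln, Mstn, Myl9 and Acta2. Acta2, the smooth muscle actin of myofibroblasts, was at 863 and 592.4 CPM in tenocyte-like cells, against 425 and 291 CPM in surface-type cells. Tagln, an actin-binding protein of smooth muscle, was at 557 and 424 CPM, against 245 and 200.1 CPM, and the myosin light chain Myl9 at 189.5 and 155 CPM, against 92.5 and 67.0 CPM. The 6 lowest genes were Myoc, Penk, Sfrp4, Ctla2a, Tnxb and C4b, from -4.51 for Myoc in WT to -2.28 for C4b and Tnxb in F592A. Prg4, the lubricant proteoglycan lubricin of sliding surfaces, was at 539.6 and 555 CPM in tenocyte-like and 1341 and 1119 CPM in surface-type cells. Against all other stromal cells the same genes were less far apart, with log2 ratios of 0.68 and 0.96 for Acta2 and 0.17 and 0.40 for Tagln.

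Against Rbp4/Acan cells, stromal cells with at least 5 Rbp4 and 2 Acan UMIs, 55 (0.459%) of 11995 genes were higher and 63 (0.525%) lower in both libraries. Crabp1, a retinoic acid-binding protein, was at 43.7 and 50.7 CPM, against 4.80 and 1.70 CPM in Rbp4/Acan cells. Mstn was 3.57 and 3.03 higher on the log2 scale. The genes lowest against these cells were Wfdc18, Sfrp1, H19, Penk, Eln and Pappa, with Wfdc18 at -6.13 and -5.39.

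Between the genotypes, few genes of these cells were 2-fold apart. In tenocyte-like cells 25 (0.246%) of 10169 genes were higher in F592A by 2-fold or more and reached 20 CPM in that library, and 16 (0.157%) were lower by as much, with 20 CPM or more in WT. The lower genes numbered 8 without the Angptl7 and Rbp4 limits and 6 with a minimum of 50 CPM, which left 15 higher. At a limit of 1.5-fold, 310 (3.05%) were higher and 248 (2.44%) lower. In other stromal cells 17 (0.124%) and 24 (0.175%) of 13706 genes were past 2-fold. None of the 28 tendon matrix genes and none of the 12 measured tendon transcription factors was past 2-fold. The log2 ratio was -0.08 for Scx, 0.04 for Mkx and -0.10 for Fmod. It was 0.01 for Tnmd and 0.05 for Kera, whose levels had the same lower limits in both libraries, against 0.37 and 0.68 in other stromal cells. Col1a1, the main fibril collagen, was at 38376 and 38857 CPM (0.02), and Col3a1, a collagen of early repair, at 11933 and 12805 CPM (0.10).

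None of the 28 tendon matrix genes was past 1.5-fold lower, beside 2.44% of all genes, so nothing particular to the list is read from this. Comp, a cross-bridging glycoprotein of the collagen fibril, was at 2822 and 2059.6 CPM (log2 ratio -0.45), Cilp2 at -0.52 (interval -0.56 to -0.47) and Chad at -0.44 (interval -0.49 to -0.39). Ogn, the small proteoglycan osteoglycin, was the matrix gene with the largest positive value, at 984 and 1493 CPM (0.60). In other stromal cells Chad and Cilp2 stood at 0.87 and 0.29, so the libraries were ordered the other way there. The Chad and Cilp2 values depended on the Angptl7 and Rbp4 limits: without them Chad was at -0.03 and Cilp2 at -0.30. Klf2, a flow- and stress-responsive factor, was the only tendon transcription factor past 1.5-fold, at 725 and 454 CPM (-0.68).

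Mstn was the tenocyte marker that differed most. Its level was 148 CPM in the WT and 60.2 CPM in the F592A library, a log2 ratio of -1.29 (interval -1.40 to -1.19). In other stromal cells it was at 19.1 and 21.1 CPM (0.14), while in surface-type cells it was at 70.6 and 27.5 CPM. Before thinning, Mstn UMIs were found in 7.18% of WT and 4.36% of F592A Rbp4/Acan cells, and in 15.5% and 15.2% of surface-type cells. After thinning every cell to 5000 UMIs, a Mstn UMI was found in 21.3% of the WT (18.4 to 24.5) and 9.64% of the F592A tenocyte-like cells (7.26 to 12.5). Without the 5 richest cells of each library the log2 ratio was -1.77, and with at most 5% mitochondrial UMIs it was -0.95. Of the other genes of this pathway, Inhba, an activin subunit, was at 87.5 and 124.5 CPM (0.51), Fst, which binds activins and myostatin, at 15.2 and 11.3 CPM (-0.43), and the follistatin-like Fstl3 at 18.0 and 24.4 CPM (0.43). Of 8 measured genes on the myostatin and activin list, Mstn alone was past 1.5-fold, beside 3.05% of all genes higher and 2.44% lower.

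Of the other lower genes, Nfatc2, a calcium-regulated transcription factor, was at 75.2 and 24.8 CPM (log2 ratio -1.60, interval -1.76 to -1.44). Eno3, the muscle enolase of glycolysis, was at 119.7 and 53.8 CPM (-1.16), and Wfdc1, a secreted protease inhibitor-like protein, at 77.2 and 37.1 CPM (-1.06). Mmp3, the stromelysin protease, was at 54.2 and 21.6 CPM (-1.33), but at -0.08 without the Angptl7 and Rbp4 limits. Igfbp2, Kcnn4, Erfe, Fam180a and Ccn3 lay between -1.85 and -1.11, and Igfbp2 was at -1.51 in other stromal cells as well. Reg3g (-2.59) rested on 1 WT cell with 64.3% of the library's UMIs. The other 5 lower genes were Lyz2, C1qa, C1qb, Pf4 and Ccl4, which were named after their values were seen. Their levels in these cells were under 1/4 of those in leukocytes, and Lyz2, at 157 and 65.5 CPM here, was lower in other stromal cells too (-1.37). The macrophage marker sum given above moved with them, and its part was not tested.

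**Figure D3:**
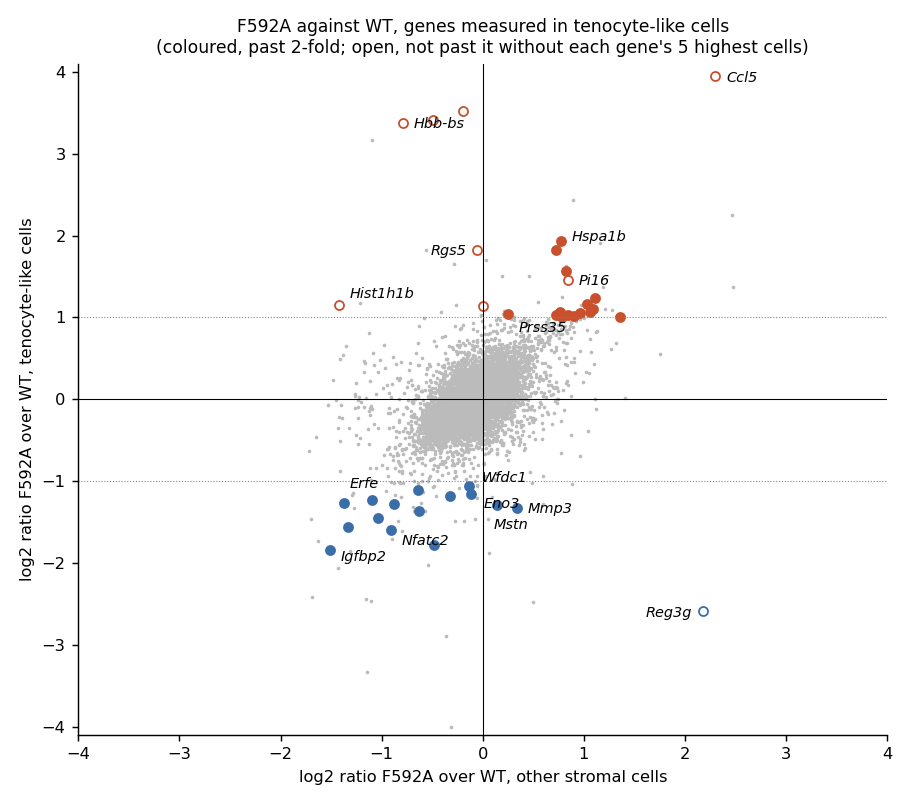
Log2 ratio of F592A over WT in tenocyte-like cells (vertical) against the same ratio in other stromal cells (horizontal) for the 10169 measured genes in grey, with the 25 higher and 16 lower genes coloured. Mstn and Mmp3 sit low while near or above 0 in other stromal cells, and open symbols such as Ccl5 and Hbb-bs lose the 2-fold difference without their 5 richest cells in each library.

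The higher genes held stress chaperones, short transcripts and genes whose UMIs came mostly from single cells. Hspa1b and Hspa1a, heat-shock chaperones of the Hsp70 family, were at 47.1 and 180.8 CPM (log2 ratio 1.94) and at 50.3 and 178.7 CPM (1.83). The copies are nearly identical, so the division of UMIs between them is uncertain. Their co-chaperone Hsph1 was at 26.7 and 52.8 CPM (0.98), Hspb1 at 0.79 and Hsp90aa1 at 0.61. Unfolded protein response genes went both ways, with Calr at -0.24 and Hsp90b1 at -0.21 but Hspa5 at 0.13 and Ddit3 at 0.06. Of 28 genes on this list 5 were at least 1.5-fold higher and 0 lower, beside 3.05% and 2.44% of all genes. In other stromal cells Hspa1b was at 0.77, Hspa1a at 0.73 and Hsph1 at 0.64, while Hspb1 was at -0.01 and Hsp90aa1 at 0.12. Prss35, a serine protease-like protein, was at 58.3 and 120.3 CPM (1.05), against 0.24 in other stromal cells. Hist1h4d, which encodes histone H4, was at 8.81 and 26.0 CPM (1.56), against 0.82 in other stromal cells.

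Several of the highest values came from 1 to 5 cells. Ccl5, a T cell chemokine, was at 2.36 and 36.5 CPM (3.95), with 75.7% of the F592A UMIs in 1 cell, and without the 5 richest cells of each library it was at -3.09. Rgs5, a mural cell marker (1.83), had 60.1% and Pi16 (1.46) had 55.5% of its F592A UMIs in 1 cell. The haemoglobin gene Hbb-bs had 97.3% of its F592A UMIs in 1 cell, and the mural and red blood cell marker sums were 14.8 and 45.7 CPM and 13.1 and 137 CPM. The 5 richest F592A cells held 86.0% of the UMIs of the replication-linked histone gene Hist1h1b (1.15). Without the 5 richest cells for each gene, 16 of the 25 higher and 10 of the 16 lower genes were still past the whole rule of size. F2rl1, a protease-activated receptor, was at 1.14 with all cells and 0.88 without those cells.

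The longest annotated transcript of the 25 higher genes had a median of 1044 bases, against 1585 bases for the 16 lower genes and 3451 bases for all measured genes. Of the 25, 12 were under 1000 bases, against 4.72% of all measured genes, among them Ndufa3, Atp5k and the ribosomal protein genes Rps27, Rpl37 and Rpl38, which were singled out after their values were seen. The 38 measured genes under 500 bases had a median log2 ratio of 0.72 in tenocyte-like and 0.54 in other stromal cells. The 442 genes of 500 to under 1000 bases, among them most of the 12, were at -0.14 and -0.28, below the median of all genes. Hbb-bs, Hba-a1, Ccl5 and Hist1h1b, whose UMIs came from few cells, are also among the 12. So is Hba-a2, whose log2 ratio was 3.41 with all cells and -2.62 without the 5 richest cells of each library. Hba-a1 and Hba-a2 were named after their values were seen. Gm42418, a locus that overlaps ribosomal RNA sequence and was singled out after its values were seen, was at 30900 and 62050.4 CPM in tenocyte-like cells and had a log2 ratio of 1.36 in other stromal cells. The part of transcript length and of this locus in the differences was not tested.

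Of 31 gene lists, 2 had a median at least 0.2 from that of all measured genes, which was -0.01. The number was 4 or 5 under 5 alternatives: a Tnmd limit of 20, no Angptl7 and Rbp4 limits, doublets left out, per-cell means and thinning. Hypoxia and glycolysis genes lay lower, with a list median of -0.41 over 27 genes, 4 of them above the median of all genes. Gapdh was at 1046 and 748 CPM (-0.48), the phosphoglycerate mutase Pgam1 at 304 and 202 CPM (-0.59), the lactate exporter Slc16a3 at 78.3 and 47.7 CPM (-0.71), and the hypoxia target Ankrd37 at 16.9 and 4.67 CPM (-1.86). Hk2, a hexokinase at the head of glycolysis, went the other way at 65.5 and 107 CPM (0.70). The list median in other stromal cells was -0.48. Oxidative phosphorylation genes lay higher, with a median of 0.23 over 40 genes. Of these, 9 were at least 1.5-fold and 2 at least 2-fold higher, beside 3.05% and 0.246% of all genes. In other stromal cells the list median was 0.09, where the median of all measured genes was -0.09. In tenocyte-like cells the 20 genes of this list under 1000 bases had a median of 0.32 and the 20 longer genes one of 0.11. The complex IV subunit Cox7c was at 335 and 562 CPM (0.75), while the ATP synthase subunit Atp5b was at 361 and 312 CPM (-0.21).

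The remaining 29 lists lay within 0.2 of the median of all genes. Collagen chains were at 0.02, with Col5a3 at 90.1 and 134 CPM (0.57) and Col22a1 at 22.0 and 33.2 CPM (0.59). TGF-beta ligands, receptors and targets were at 0.01, with the matricellular target Ccn2 at 521 and 362 CPM (-0.52) and Tgfb3 at 96.4 and 119.2 CPM (0.31). Cytokine and inflammation genes were at -0.03, with the neutrophil attractants Cxcl2 at 222 and 116 CPM (-0.94) and Cxcl1 at 309 and 212 CPM (-0.54). Axon guidance genes were at 0.12, with 3 of 28 at least 1.5-fold higher and 0 lower, beside 3.05% and 2.44% of all genes. Of these, Sema7a was at 2.31 and 6.57 CPM and Plxnd1 at 7.62 and 12.5 CPM. The Wnt antagonist Sfrp2 was at 59.8 and 32.0 CPM (-0.90), and the Wnt agonist Rspo2 at 17.8 and 31.1 CPM (0.81). The ferritin chains that store iron were lower, Fth1 at 2045 and 1211 CPM (-0.76) and Ftl1 at 2153 and 1563 CPM (-0.46), while the metallothioneins Mt1 (0.61) and Mt2 (0.69) were higher.

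**Figure D4:**
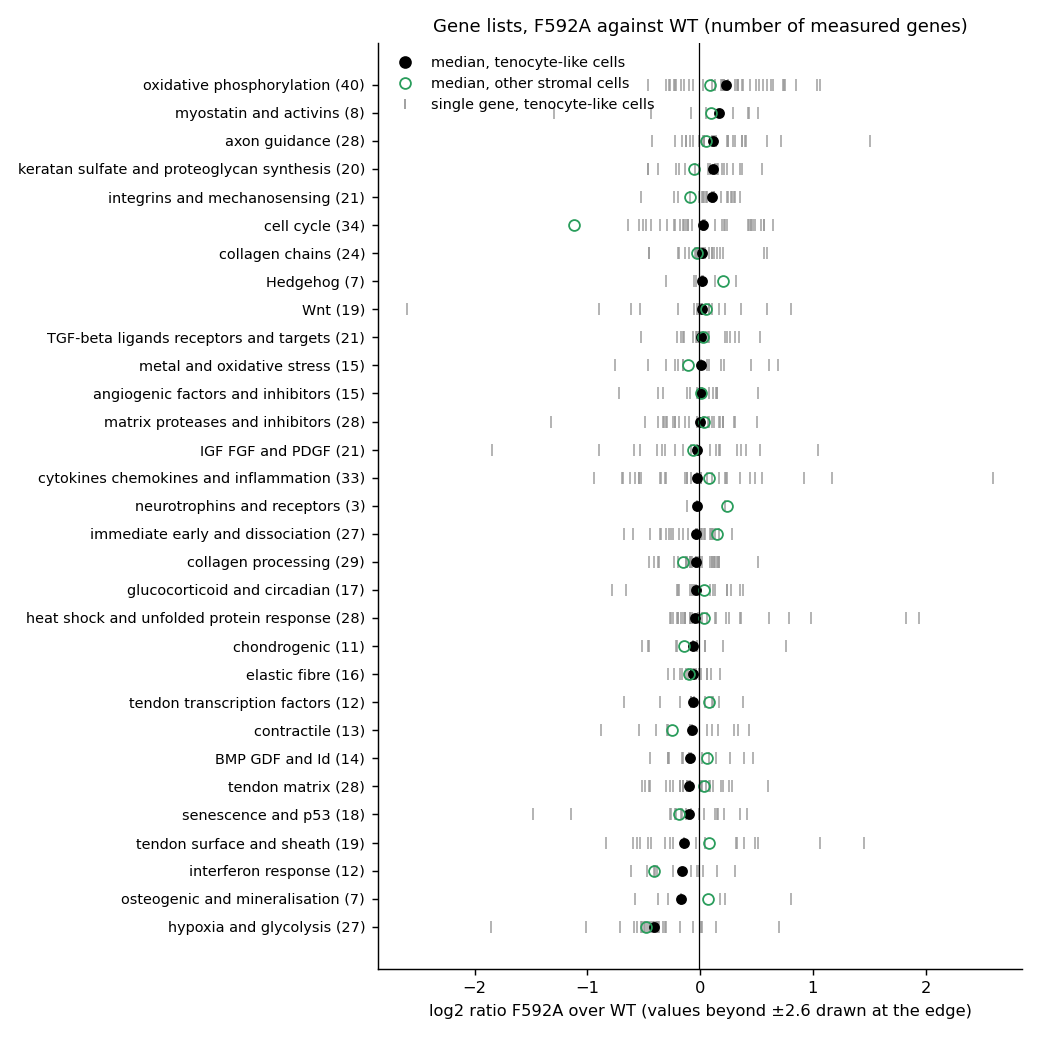
Log2 ratio of F592A over WT for each gene list with at least 3 measured genes. The median of all measured genes was -0.01 in tenocyte-like and -0.09 in other stromal cells. Grey ticks are single genes and black dots list medians in tenocyte-like cells, and green circles are medians in other stromal cells; hypoxia and glycolysis lay at -0.41, oxidative phosphorylation at 0.23, and the cell cycle list at 0.03 in tenocyte-like but -1.12 in other stromal cells.

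The cell cycle list had a median log2 ratio of 0.03 over 34 genes in tenocyte-like cells and -1.12 in other stromal cells. Mki67 was at 13.5 and 20.0 CPM (0.57), and Ube2c, a ubiquitin enzyme of mitotic exit, at 30.9 and 19.8 CPM (-0.64). After thinning to 5000 UMIs, the share of cells with at least 2 cell cycle UMIs was 20.9% in WT (18.0 to 24.1) and 21.6% in F592A (18.1 to 25.3), and the ratio was 1.03. In other stromal cells the shares were 29.6% and 19.8%, a ratio of 0.671 (interval 0.623 to 0.724). Without thinning the tenocyte-like shares were 82.5% and 84.9%. Neutrophils, which do not divide, had shares of 20.8% and 16.5% after thinning to 2000 UMIs, where tenocyte-like cells had 6.05% and 8.87%, and other stromal cells had 13.6% and 7.20%. Since neutrophils had the highest share, no cycling is read from these shares in any of the 3. Median depth was 24259 and 28469.5 UMIs in tenocyte-like cells and 2503 and 3117 in neutrophils.

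Among the cells themselves, the clearest pattern was a run from Chad and Cilp2 to Postn and Col3a1. All values here are Spearman correlations across the 726 WT and 529 F592A cells with at least 5000 UMIs, thinned to that depth. They are descriptions over cells that share a library. Chad and Cilp2 had a rho of 0.634 in WT and 0.529 in F592A. Fmod followed Cilp2 (0.447 and 0.473), Comp (0.398 and 0.496) and, less closely, Chad (0.344 and 0.341). Postn, which encodes periostin, a matrix protein of healing tissue, went with Col3a1 (0.587 and 0.445) and against Cilp2 (-0.476 and -0.439), and Chad went against Col3a1 (-0.590 and -0.458). Scx and Mkx lay outside this run, with rho values to Chad of -0.039 and 0.040 for Scx and 0.039 and 0.109 for Mkx. For likeness to Tnmd, genes were ranked by rho in the library where it was nearer 0. By this rank the gene most like Tnmd of 4488 compared was Ppic, a cyclophilin, at 0.292 and 0.217. The least like was Lum, the proteoglycan lumican, at -0.264 and -0.183. Scx had a rho to Tnmd of 0.107 in WT and 0.28 in F592A, so in F592A alone it was above Ppic.

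**Figure D5:**
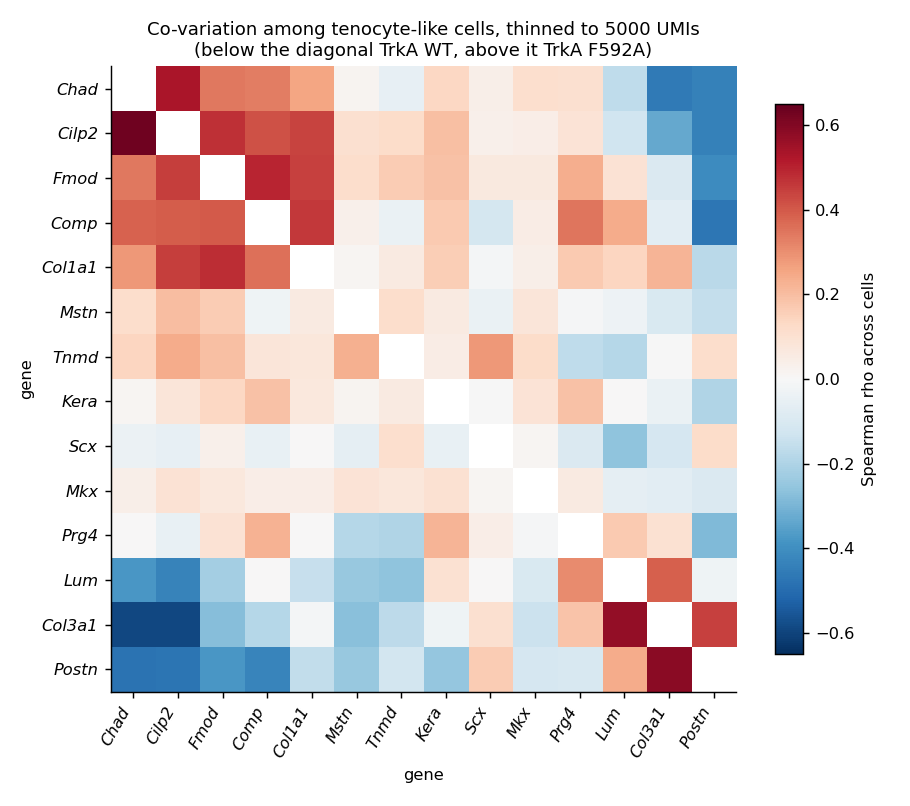
Spearman rho across tenocyte-like cells between 14 genes, with the WT library below and the F592A library above the diagonal. Chad, Cilp2, Fmod, Comp and Col1a1 form a positive block whose rho with Postn was negative in both libraries, from -0.478 (Chad, WT) to -0.158 (Col1a1, WT), while Col1a1 with Col3a1 was at -0.015 and 0.221.

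Principal components came from the same thinned cells, so they are no separate support, and the second had genes of the run above at its ends. The second component took 0.803% of the variance and had Cilp2, Chad, Fmod, Fxyd6, Sparc, Matn4, Nupr1 and Comp at its high end and Postn, Igf1, Aspn, Fstl1, Dpt, Col5a2, C1qtnf3 and Barx2 at its low end. The first took 1.08%, had Lgals1, Tmsb4x and Acta2 at its high end, and moved with the UMIs of the cell (rho 0.340 and 0.297). The second moved less with UMIs (-0.028 and -0.167).

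A split by Chad, chosen after these correlations were seen, named the genes at the 2 ends. After thinning, a Chad UMI was found in 333 of 726 WT cells (45.9%, with bounds of 42.2 and 49.6). In F592A it was found in 196 of 529 cells (37.1%, with bounds of 32.9 and 41.3). Cells with Chad were higher in Cilp2 (1064 and 821 CPM, against 293 and 240.3 CPM without Chad), Col2a1, the cartilage collagen (150.2 and 120.7 CPM, against 45.8 and 38.2 CPM), and the matrilins Matn3 and Matn4. Gpha2, Ass1, Ramp1, Wfdc1 and Eno3 were also higher there in both libraries. Cells without Chad were higher in Postn (2903 and 3138 CPM, against 931 and 1210.2 CPM with Chad), Tnn, which encodes tenascin-W (243.8 and 311 CPM, against 68.7 and 68.1 CPM), Lrrc17, Barx2, Dpt, Clec3b and Rspo2. Eno3 and Wfdc1 were lower in F592A on both sides of the split: Eno3 was at 204 and 93.2 CPM with Chad and 50.8 and 31.8 CPM without it, and Wfdc1 at 125 and 73.8 CPM with Chad and 37.9 and 16.6 CPM without it. Mstn was lower in F592A on both sides of the split, at -1.26 with Chad (interval -1.42 to -1.10) and -1.21 without it (interval -1.37 to -1.06). Erfe, the hormone erythroferrone, was at 12.8 and 15.5 CPM in cells with Chad and at 59.1 and 16.6 CPM in cells without it, so its lower F592A level lay in the cells without Chad.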

How the data were processed

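Single-cell RNA was measured in 2 libraries, 1 per genotype. The authors deposited raw counts, whole UMIs per gene and barcode, with 32285 genes. Cell Ranger 2.1.1, the mm10 build and Seurat are listed in the submitters' processing notes, while the matrix metadata, per the file headers, name Cell Ranger 6.0.1; which version made the counts was not settled. The lowest barcode total of 500 UMIs was found in both files.

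Counts were filtered by the limits given above, summed over the cells of a group in each library and divided by that group's UMIs (CPM), in Python 3.11.15 (numpy 2.4.6, scipy 1.17.1, pandas 2.3.3). Doublets called by Scrublet (scanpy 1.11.5) were kept, and leaving them out was an alternative. With 1 library per genotype no test was possible. Intervals are exact Poisson for levels, exact binomial for shares, exact conditional binomial for log2 ratios and normal on the log scale for ratios of shares, all at 95%; UMIs are treated as independent molecules and mouse-to-mouse spread is not covered. Genes counted as measured had 100 UMIs or more in the libraries together and were called past 2-fold with at least 20 CPM in the higher one.

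Genes named were the 6 markers, the 15 highest and 10 lowest against other stromal cells, 6 and 6 against surface-type and Rbp4/Acan cells, up to 12 and 12 between genotypes, list members by level and ratio, and the ends of the correlation and component rankings. Gate, mitochondrial, ribosomal protein, haemoglobin, sex-linked and Gm-numbered genes were left out of the rankings, and genes under 1/4 of the leukocyte or endothelial level out of the genotype ranking; exceptions are marked where they appear. The members, the 31 gene lists and the rules were chosen with earlier results of these data known. Of the gene IDs 32235 were found in GENCODE M21 (GRCm38), which gave positions and transcript lengths, and promoters are from RefSeq on GRCm38.p6. Alternatives were other limits on Kera, Tnmd, UMIs and mitochondrial share, no Angptl7 and Rbp4 limits, doublets left out, shared barcodes kept, TMM (edgeR 4.0.16, R 4.3.3) and median-of-ratios scaling, per-cell means, thinning and stricter gene minimums. The levels of some genes are not reported here.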

Additional observations from a re-analysis of the deposited data

Results flagged for a closer look

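By a rule on level, size and counting interval, 4 named genes were flagged. Their F592A levels, as ratios of summed CPM, were at least 1.5-fold below WT in tenocyte-like cells and above WT in other stromal cells. Other named genes with opposite signs, such as Chad and Cilp2, were outside the rule. The values below are log2 ratios. Mmp3 was at -1.33 in tenocyte-like and 0.34 in other stromal cells, and Mstn was at -1.29 and 0.14. Sfrp2 was at -0.90 and 0.14. The chemokine gene Cxcl14 was at -0.69 and 0.96, with 29.5 and 18.3 CPM in tenocyte-like cells. Without the Angptl7 and Rbp4 limits Mmp3 was at -0.08 in tenocyte-like cells. In surface-type cells, which belong to the other stromal cells, the summed Mstn level was lower in F592A, as given above. Rbp4/Acan cells also belong to them, and the share with Mstn UMIs was 7.18% in WT and 4.36% in F592A. With 1 library per genotype the difference was not tested for any of the 4.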

How the results depend on the processing

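No paired analysis was possible because each genotype had 1 library, and for the same reason no library could be left out. Of the values that answer a comparison, 64 stayed within the spread or 1.5 times the reported value under an alternative and 15 moved. Without the Angptl7 and Rbp4 limits the share ratios were 1.20 of all and 1.25 of stromal cells, and 8 genes were lower in F592A; with at most 5% mitochondrial UMIs the ratios were 1.23 and 1.24. With at least 50 CPM, 15 genes were higher and 6 lower between genotypes, and 31 higher and 80 lower against other stromal cells. The number of lists at least 0.2 from the median of all genes was 5 with at least 20 Tnmd UMIs per 10000, 4 without the Angptl7 and Rbp4 limits, 4 without doublets, 4 with per-cell means and 5 after thinning. The ratio of shares with cell cycle UMIs was 1.47 after thinning to 2000 UMIs. Of the values of single genes and list medians, 803 stayed, 108 moved and 3 reversed. A reversal was a change of sign in a gene past 2-fold or a list at least 0.2 from the median. Reg3g was at 2.88 with at most 5% mitochondrial UMIs. Without the 5 richest cells per gene, an alternative chosen after seeing the data, Ccl5 was at -3.09 and Pi16 at -0.058. Genes near 0 also changed sign without being counted, and Tnmd kept its sign in 12 of 15 settings. The cause was not tested. Mstn stayed negative in all 15 settings, from -1.77 to -0.95, and past 2-fold in 14. Depth limits the genes with few UMIs, such as Sema7a with 43 and 104.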
